A study of Mus musculus with 6 samples.

Results

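Transcript levels of 10 neural progenitor genes were examined in whole male mouse embryos at embryonic day 9.5. The genes were taken by name from the expression table. They are the SoxB factors *Sox1*, *Sox2*, *Sox3* and *Sox21*, and the neuroepithelial genes *Nes*, *Msi1*, *Fabp7*, *Vim*, *Prom1* and *Cdh2*. Each of these 10 symbols was found at 1 of the 24207 loci in the table. All 10 averaged 1 FPKM or more over the genotypes, as did 12345 loci in all, and loci past this level are called expressed below. FPKM is a fragment count scaled to transcript length and to the number of mapped fragments, so levels of different genes are compared here on that scale.

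The study sequenced RNA from 6 embryos, 3 Smchd1+/+ and 3 homozygous for the MommeD1 allele of *Smchd1* (Smchd1MommeD1/MommeD1). *Smchd1* encodes an SMC-like chromosomal protein that is needed for X inactivation, and MommeD1 came from a chemical mutagenesis screen. The allele is carried in every tissue, so the mutant embryos lack the normal gene in neural and non-neural cells alike. Embryos were genotyped on the yolk sac, and came from crosses of heterozygous parents according to the study's methods. The sample labels give the background of both genotypes as C57Bl6/J x FVB/n, whereas the study's text describes a backcross to 129 T2/SvEms for its embryos analysed by RNA-seq. The table has 1 FPKM value per genotype, pooled over its 3 embryos. From these pooled values no spread between embryos could be given and no test across embryos could be made. The authors' own test results were not used. Whether embryos of the genotypes overlap cannot be seen, and sequencing depth is not known. Values are given with the mutant first throughout. *Smchd1* itself was at 2.12 FPKM in mutant embryos and 34.0 FPKM in wildtypes. Embryos were labelled male. *Xist* was at 0.00250 and 0.00889 FPKM, and the Y-linked *Ddx3y* was at 8.75 and 9.81 FPKM, in mutant and wildtype embryos. The Y-linked *Eif2s3y* was at 14.3 and 21.1 FPKM, *Uty* at 5.17 and 6.37 FPKM and *Kdm5d* at 5.62 and 5.46 FPKM.

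At this stage the neural tube has closed along much of its length and is a pseudostratified epithelium of dividing progenitors, from which the first neurons leave at its outer edge. SoxB1 proteins, encoded by *Sox1*, *Sox2* and *Sox3*, are transcription factors that keep these cells in a progenitor state and are shut off as neurons form, while *Sox21*, a SoxB2 gene, opposes them. Nestin and vimentin build the intermediate filaments of the progenitor, Musashi-1 binds RNA and restrains translation of differentiation genes, Fabp7 carries fatty acids in radial glia, prominin-1 marks the apical membrane, and N-cadherin, encoded by *Cdh2*, holds the apical junctions together.

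Of the 10 genes, *Fabp7* differed most between the genotypes. It was at 43.1 FPKM in mutant embryos and 20.6 FPKM in wildtypes, 2.09-fold higher in the mutants. *Vim*, *Nes* and *Msi1* were higher by 46.6%, 43.3% and 25.9%. The 4 SoxB factors and *Prom1* were between 3.83% and 15.9% higher, and *Cdh2* was slightly lower in mutant embryos. Thus 9 of the 10 levels were higher in the mutants, where 48.3% of all 12345 loci were. In RNA from whole embryos, more cells of a type and more RNA per cell cannot be told apart.

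**Figure D1:**
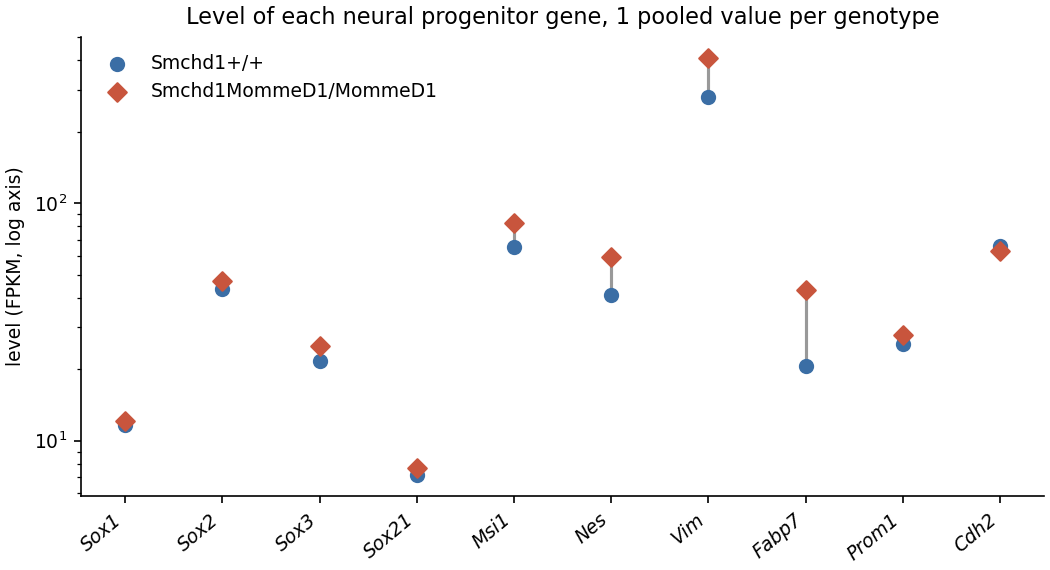
Level of each gene (FPKM, log axis) in Smchd1+/+ (blue circles) and Smchd1MommeD1/MommeD1 (red diamonds) embryos, 1 pooled value per genotype and no error bars for that reason. *Fabp7* shows the widest gap (43.1 against 20.6 FPKM), and the markers of *Sox1*, *Sox21* and *Cdh2* nearly coincide.

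Log2 ratios were calculated as mutant over wildtype after adding 0.1 FPKM to each value. Over the 12345 loci their median was -0.01, with 5th and 95th percentiles of -0.32 and 0.47. With 1 value per genotype, a locus was called higher or lower at a difference of 1.5-fold or more on this scale, which is a rule of size and no test of significance. By that rule 1 of the 10 genes, *Fabp7*, was called higher and 0 were called lower, while 3.54% of all loci were called higher and 1.46% lower. Among the 8815 loci averaging 5 FPKM or more, where all 10 genes lie, 1.51% were called higher and 0.885% lower. With a threshold of 25% higher, and its inverse for lower, in place of 1.5-fold, 4 genes were called higher, namely *Fabp7*, *Vim*, *Nes* and *Msi1*, and 0 were called lower, beside 8.89% and 4.98% of all loci. At 2-fold, *Fabp7* was again the 1 gene called higher, with 0 lower, beside 0.988% and 0.502% of all loci. The median log2 ratio of the 10 genes was 0.17, with a range from -0.07 to 1.06.

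The spread of log2 ratios over loci was wider under 10 FPKM than above. For the 5644 loci with a mean of 10 FPKM or more but under 100 FPKM, the 5th and 95th percentiles were -0.25 and 0.26. *Fabp7* (log2 ratio 1.06), *Nes* (0.52) and *Msi1* (0.33) lay above that range. *Sox1*, *Sox2*, *Sox3*, *Prom1* and *Cdh2* lay within it. *Vim* (0.55) lay above the 95th percentile of 0.24 of the 926 loci with a mean of 100 FPKM or more. *Sox21*, at a mean of 7.43 FPKM, lay well inside the range of -0.41 to 0.67 for loci under 10 FPKM. These percentiles describe the loci of this table and do not take the place of replicate error.

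**Figure D2:**
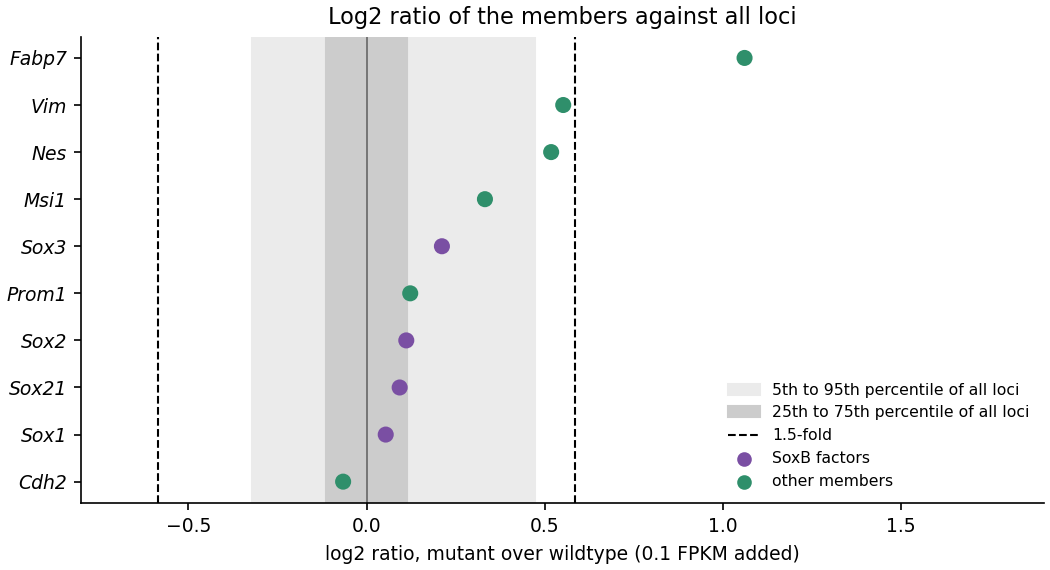
Log2 ratio of each gene, mutant over wildtype (0.1 FPKM added), with SoxB factors in purple and the other genes in green, over bands for the 25th to 75th and 5th to 95th percentiles of all 12345 loci. Dashed lines mark 1.5-fold, which *Fabp7* (1.06) passes and *Vim* (0.55) does not.

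The SoxB1 genes were dominated by *Sox2*. In wildtype embryos *Sox2* was at 43.6 FPKM, *Sox3* at 21.6 FPKM and *Sox1* at 11.6 FPKM. In mutant embryos the levels were 47.1, 25.1 and 12.1 FPKM in the same order. *Sox2* thus made up 56.7% of summed SoxB1 FPKM in wildtype and 55.9% in mutant embryos, *Sox3* 28.2% and 29.8%, and *Sox1* 15.1% and 14.3%. The order of the 3 genes was the same in both genotypes, and their summed level was 1.10-fold higher in the mutants. Log2 ratios were 0.21 for *Sox3*, 0.11 for *Sox2* and 0.05 for *Sox1*, so that 14.5%, 25.5% and 35.9% of all loci had a higher ratio. *Sox3* is X-linked (chrX:60891366-60893430), and male embryos have a single X chromosome. *Sox21* had the lowest level of the 10 genes, 7.67 FPKM in mutant embryos and 7.18 FPKM in wildtypes, a log2 ratio of 0.09.

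The loci of *Sox2* and *Sox1* each hold a second transcript. *Sox2* is listed on chromosome 3 from 34560330 to 34678068, a span it shares with the noncoding *Sox2ot* on the same strand, which contains it. *Sox2ot* was at 2.45 FPKM in mutant embryos and 2.51 FPKM in wildtypes, 5.76% of the wildtype level of *Sox2*. *Sox1*, on chromosome 8 from 12385771 to 12436732, shares its span with *Gm5607*, at 0.570 and 0.771 FPKM. Neither host transcript was higher in the mutants, and both were far below the SoxB1 gene inside them. The libraries were not directional, so a read that both transcripts could give is assigned by estimate. GENCODE M21 also places a noncoding gene on the opposite strand over part of *Sox21*, *Msi1*, *Prom1* and *Cdh2*, and reads of such a pair cannot be told apart by strand. It lists 1 exon for the longest coding transcript of each of the 4 SoxB genes, against 3 for *Fabp7*, 4 for *Nes*, 9 for *Vim*, 15 for *Msi1*, 16 for *Cdh2* and 25 for *Prom1*.

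The other SOX genes were set beside the SoxB factors as a family. Of 16 further SOX genes, 12 were expressed, and of these 0 were called higher and 0 lower, with a median log2 ratio of 0.13. The SoxC genes *Sox4*, *Sox11* and *Sox12*, which act in neurons as they differentiate and also in mesenchyme, were the most abundant. *Sox11* was at 53.5 FPKM in mutant embryos and 44.3 FPKM in wildtypes, and the summed SoxC level was 1.17-fold higher in the mutants. *Sox9*, a gene of later neural stem cells, of crest and of cartilage, had the largest ratio of the expressed family members (13.7 against 10.9 FPKM, log2 ratio 0.32). The crest gene *Sox10* (7.74 and 7.95 FPKM) and the endothelial *Sox18* (9.95 and 10.8 FPKM) were slightly lower. *Sox14*, the other SoxB2 gene, was at 0.162 and 0.0575 FPKM, too low for a ratio to be read, and *Sry* was listed at 0 in both genotypes.

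**Figure D3:**
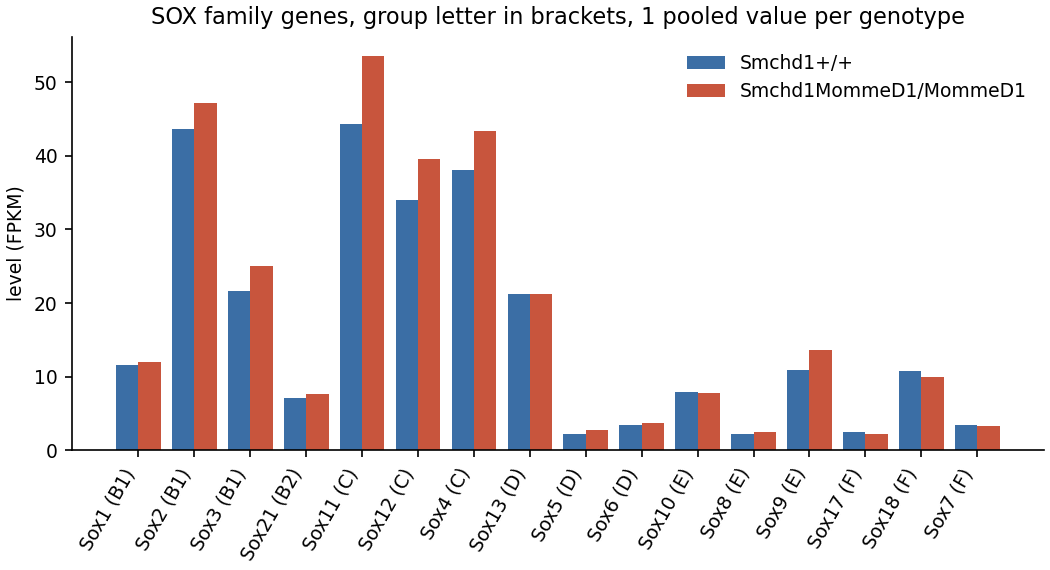
Level (FPKM) of each expressed SOX gene in Smchd1+/+ (blue) and Smchd1MommeD1/MommeD1 (red) embryos, with the SOX group in brackets. *Sox2*, at 47.1 FPKM in mutant embryos and 43.6 FPKM in wildtypes, stands with the SoxC genes among the most abundant, and no gene differs by as much as 1.5-fold.

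Among the filament genes, *Vim* was the most abundant of the 10, at 410 FPKM in mutant embryos and 279 FPKM in wildtypes, and ranked 297 of all 12345 loci by mean level. *Nes* was at 59.1 and 41.2 FPKM. Their log2 ratios of 0.55 and 0.52 were close, so the level of *Vim* was 6.93 times that of *Nes* in mutant and 6.78 times in wildtype embryos. *Vim* passed 1.5-fold (log2 ratio 0.59) when the genotypes were rescaled to the same total FPKM. Of 11 further expressed intermediate filament genes, 3 were called higher and 2 lower, and their median log2 ratio was 0.04. The 3 called higher were the neurofilament genes *Nefm* (16.6 and 5.51 FPKM, log2 ratio 1.57), *Nefl* (1.37) and *Ina*, which encodes alpha-internexin (1.46). The 2 called lower were the keratin genes of simple epithelia, *Krt8* (46.8 and 73.1 FPKM, log2 ratio -0.64) and *Krt18* (-0.63). The nuclear lamina gene *Lmnb1* was nearly the same in both genotypes at 196 and 195 FPKM. *Gfap*, the filament gene of astrocytes, was at 0.0202 and 0.0464 FPKM.

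*Vim* is also a gene of mesenchyme, so mesenchyme genes were read beside it. Of 12 such genes, 1 was called higher, *Twist2* (12.3 and 7.83 FPKM, log2 ratio 0.64), and 0 lower, with a median log2 ratio of 0.08. Their summed level was 476 FPKM in mutant embryos and 439 FPKM in wildtypes, a fold of 1.08, and none was at 0. The most abundant was *Fn1*, at 87.0 and 110 FPKM, which had the lowest log2 ratio of the 12 (-0.34). The collagen gene *Col3a1* was at 86.7 and 60.7 FPKM (log2 ratio 0.51), and *Prrx1* was at 30.1 and 21.4 FPKM (0.49). By log2 ratio, 9 of the 12 lay above 0 and 3 below. The part of mesenchyme in the difference of *Vim* was not tested.

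*Fabp7* belongs to a family in which the epidermal form is far more abundant in the whole embryo. *Fabp5* was at 386 FPKM in mutant embryos and 408 FPKM in wildtypes, a log2 ratio of -0.08, so the ratio of *Fabp7* to *Fabp5* was 2.21-fold higher in the mutants. *Fabp3*, the heart form, was at 9.34 and 6.66 FPKM (log2 ratio 0.48). The other 5 family members that were read, *Fabp1*, *Fabp2*, *Fabp4*, *Fabp6* and *Fabp9*, had means under 1 FPKM, and *Fabp6* and *Fabp9* were listed at 0 in both genotypes. A total of 99 of the 12345 loci, 0.802%, had a higher log2 ratio than *Fabp7*. Against *Sox2* as a gene of the same progenitors, *Fabp7* was at 0.914 times its level in mutant and 0.472 times in wildtype embryos.

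The sequences upstream of *Fabp7*, of *Nes* and of *Sox2* are shown as a description. These genes, all markers of the same progenitors, were picked because their folds differed, at 2.09, 1.43 and 1.08 in that order. Whether the sequences have a part in that difference was not tested. Each window runs from 250 to 51 bases before the RefSeq start of the gene, on the plus strand of mm10, at chr10:57784673-57784872, chr3:87970843-87971042 and chr3:34649745-34649944. Capitals mark matches, on either strand, to the RBPJ core TGGGAA (the DNA site of Notch signalling), the SOX core ACAAAG, the E-box CANNTG (the site of bHLH factors), the CCAAT box CCAAT and the POU octamer ATGCAAAT.
Fabp7: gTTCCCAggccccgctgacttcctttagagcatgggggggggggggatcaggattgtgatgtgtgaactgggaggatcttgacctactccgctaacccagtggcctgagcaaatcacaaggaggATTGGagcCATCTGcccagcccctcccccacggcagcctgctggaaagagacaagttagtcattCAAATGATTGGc
Nes: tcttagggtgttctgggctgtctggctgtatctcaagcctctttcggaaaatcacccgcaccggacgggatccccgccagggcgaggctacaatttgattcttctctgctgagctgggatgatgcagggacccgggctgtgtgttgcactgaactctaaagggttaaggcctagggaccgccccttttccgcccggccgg
Sox2: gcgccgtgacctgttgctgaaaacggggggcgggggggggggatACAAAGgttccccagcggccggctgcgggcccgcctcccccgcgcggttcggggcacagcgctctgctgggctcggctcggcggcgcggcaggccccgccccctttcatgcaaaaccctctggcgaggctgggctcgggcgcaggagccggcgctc
The *Fabp7* window held 1 RBPJ core, 2 E-boxes and 2 CCAAT boxes, and at its end an E-box directly adjoins a CCAAT box without overlap. The *Nes* window held no match to any of the 5 motifs, and the *Sox2* window held 1 SOX core. Of 32851 promoter entries in the RefSeq table (GRCm38.p6), windows of the same length held the RBPJ core in 17.9%, the SOX core in 13.6%, the E-box in 59.0%, the CCAAT box in 28.4% and the octamer in 1.32%. The windows also differed in base composition. *Sox2* had 76% G and C with 24 CpG dinucleotides, *Nes* 59% with 11, and *Fabp7* 57% with 3, where the median entry had 51.5% and 4. A match describes letters in the window and is not evidence that a factor binds there. Sequence outside the windows was not searched, so a window without a match does not show that the gene lacks such a site. Entries were found for 7 of the 10 genes.

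*Msi1* was at 82.6 FPKM in mutant embryos and 65.6 FPKM in wildtypes, a log2 ratio of 0.33, and 8.60% of loci had a higher one. Its relative *Msi2*, which is used more widely, was at 20.1 and 22.5 FPKM (log2 ratio -0.16). The quotient of *Msi1* over *Msi2* was accordingly 4.11 in mutant and 2.92 in wildtype embryos. *Prom1* was at 27.8 and 25.5 FPKM (log2 ratio 0.12), and its paralogue *Prom2* was at 0.713 and 0.458 FPKM.

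*Cdh2* was at 62.8 FPKM in mutant embryos and 65.7 FPKM in wildtypes and was the 1 gene of the 10 with a lower level in the mutants (log2 ratio -0.07), a difference of -2.93 FPKM. N-cadherin is also made by heart and somites. Of 11 heart and somite genes, 1 was called higher, *Myog* (3.98 and 1.67 FPKM, log2 ratio 1.21), and 0 lower, with a median log2 ratio of -0.13. Their summed level was 790 and 964 FPKM, and the most abundant, the atrial light chain gene *Myl7*, was at 317 and 425 FPKM (log2 ratio -0.42). By log2 ratio, 5 of the 11 lay above 0 and 6 below. The 5 were the somite genes *Myog*, *Myf5* (0.46), *Tbx18* (0.24) and *Pax1* (0.12), and the heart gene *Tnni1* (0.02). The 6 below 0 were all heart genes, among them *Myl7* and *Actc1* (284 and 338 FPKM, -0.25). The part of heart and somites in the level of *Cdh2* was not tested. Of 9 other expressed classical cadherin genes, 1 was called higher and 0 lower, and the median log2 ratio was 0.00. The 1 called was the muscle cadherin gene *Cdh15* (1.74 and 1.12 FPKM, log2 ratio 0.60). The epithelial *Cdh1* was at 9.70 and 11.7 FPKM (log2 ratio -0.27), and the mesenchymal *Cdh11* was at 34.2 and 34.1 FPKM.

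Genes of the apical junctions and polarity of the neuroepithelium were close to even. Of 14 such genes, 0 were called higher and 0 lower, with a median log2 ratio of -0.02. The most abundant was *Ctnnb1*, encoding beta-catenin, the partner of N-cadherin, at 421 and 418 FPKM. The widest ratios were those of *Ctnna2*, a catenin of neurons (2.39 and 1.57 FPKM, log2 ratio 0.58), and of the polarity gene *Pard6b* (11.1 and 14.0 FPKM, -0.33). *Crb2*, an apical determinant, was at 15.8 and 18.4 FPKM (-0.22).

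**Figure D4:**
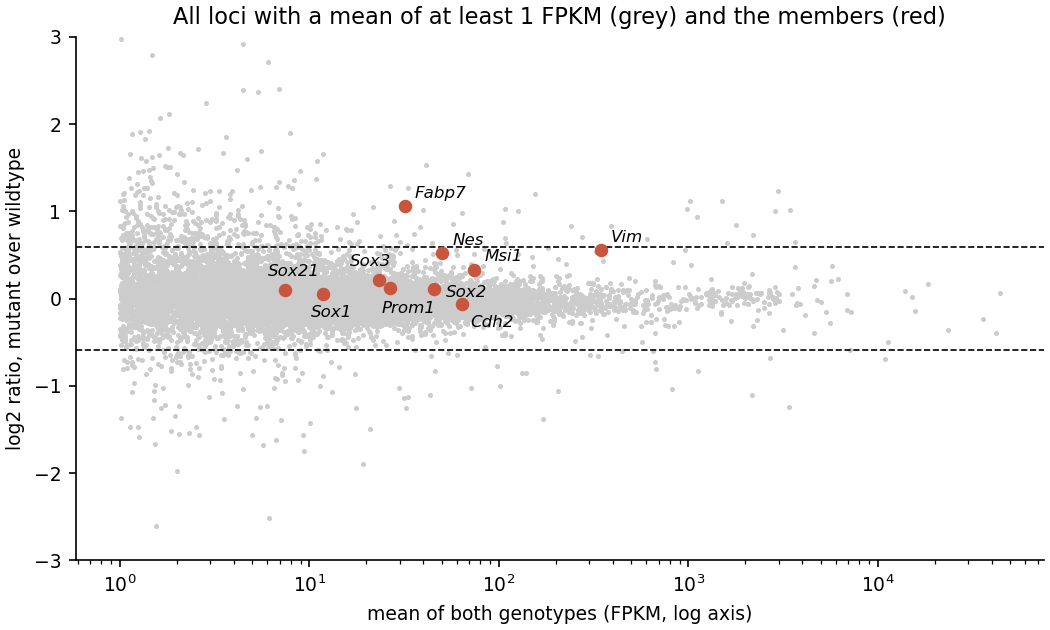
Log2 ratio, mutant over wildtype, against the mean level of both genotypes (FPKM, log axis) for the 12345 expressed loci (grey) and the 10 progenitor genes (red). Dashed lines mark 1.5-fold, the axis stops at 3 in either direction, beyond which 11 loci lie, and *Fabp7*, *Vim* and *Nes* sit at the upper rim of the cloud for their level.

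A wider list of 28 neural progenitor genes, all expressed, had a median log2 ratio of 0.19, and 2 were called higher and 2 lower. Both called higher were class III POU factors, which bind DNA together with SoxB1 proteins. *Pou3f4* was at 9.54 FPKM in mutant embryos and 3.87 FPKM in wildtypes (log2 ratio 1.28), and *Pou3f3* at 12.5 and 7.04 FPKM (0.82). The other class III members differed less. *Pou3f2* was at 10.4 and 7.75 FPKM (0.43), and *Pou3f1* at 1.96 and 2.26 FPKM (-0.20). *Hes3*, an early neuroepithelial repressor, was called lower (4.35 and 7.14 FPKM, log2 ratio -0.70), as was *Lrp2*, an endocytic receptor (3.60 and 5.85 FPKM, -0.69), which the visceral endoderm also expresses. Other Notch effectors differed in direction. *Hes5* was at 26.8 and 18.6 FPKM (0.52) and *Hes1* at 21.8 and 24.4 FPKM (-0.17), with *Notch1* at 15.4 and 12.3 FPKM (0.32). The most abundant gene of the list, the secreted Wnt inhibitor *Sfrp1*, was at 42.1 and 42.8 FPKM, and the patterning factor *Pax6* was at 14.5 and 15.6 FPKM.

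Genes of neurons were measured in the same RNA. Of 14 expressed neuronal cytoskeleton genes, 10 were called higher and 0 lower, with a median log2 ratio of 1.13. The most abundant, the neuronal tubulin gene *Tubb3*, was at 99.9 FPKM in mutant embryos and 37.0 FPKM in wildtypes. *Dcx*, a microtubule protein of newborn neurons, was at 5.37 and 1.62 FPKM (log2 ratio 1.67). The 4 not called were *Gap43* (39.9 and 31.4 FPKM, log2 ratio 0.34), *Dpysl3* (0.35), *Map1b* (39.6 and 30.8 FPKM, 0.36) and *Dclk1* (0.48), all below *Nes* (0.52) and *Vim* (0.55). The median of this list lay 0.96 above that of the 10 progenitor genes on the log2 scale, and 0.75 above with 1 FPKM added in place of 0.1. The difference was not tested. Within a genotype, *Tubb3* was at 2.12 times the level of *Sox2* in mutant and 0.847 times in wildtype embryos. *Tubb3* was at 1.69 and 0.896 times the level of *Nes*.

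Proneural bHLH factors drive progenitors toward neurons. Of the 8 expressed, 6 were called higher and 0 lower, with a median log2 ratio of 0.87. *Neurog2*, which is expressed in cycling and exiting progenitors, had a log2 ratio of 0.55 and was at 0.170 times the level of *Sox2* in mutant embryos and 0.125 times in wildtypes. *Nhlh1* and *Nhlh2*, which are expressed in newly formed neurons, were at 7.13 and 2.28 FPKM (1.60) and at 5.76 and 1.53 FPKM (1.85). Of the 5 under 1 FPKM, *Neurod6* was listed at 0 in both genotypes.

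Proliferation genes were near even. Of 19 such genes, 0 were called higher and 0 lower, with a median log2 ratio of -0.05 and a range from -0.22 to 0.17. *Pcna*, the most abundant, was at 440 and 481 FPKM, and the ends of the range were *Bub1* (30.4 and 35.5 FPKM) and *Ccnd1* (108 and 96.4 FPKM). These genes are used by dividing cells of all tissues, not by neural progenitors alone. The 16 housekeeping genes had a median log2 ratio of 0.06, with 0 called higher and 0 lower. *Eef1a1*, the most abundant, was at 7042 and 6779 FPKM, and *Pgk1* had the widest ratio (804 and 972 FPKM, -0.27).

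**Figure D5:**
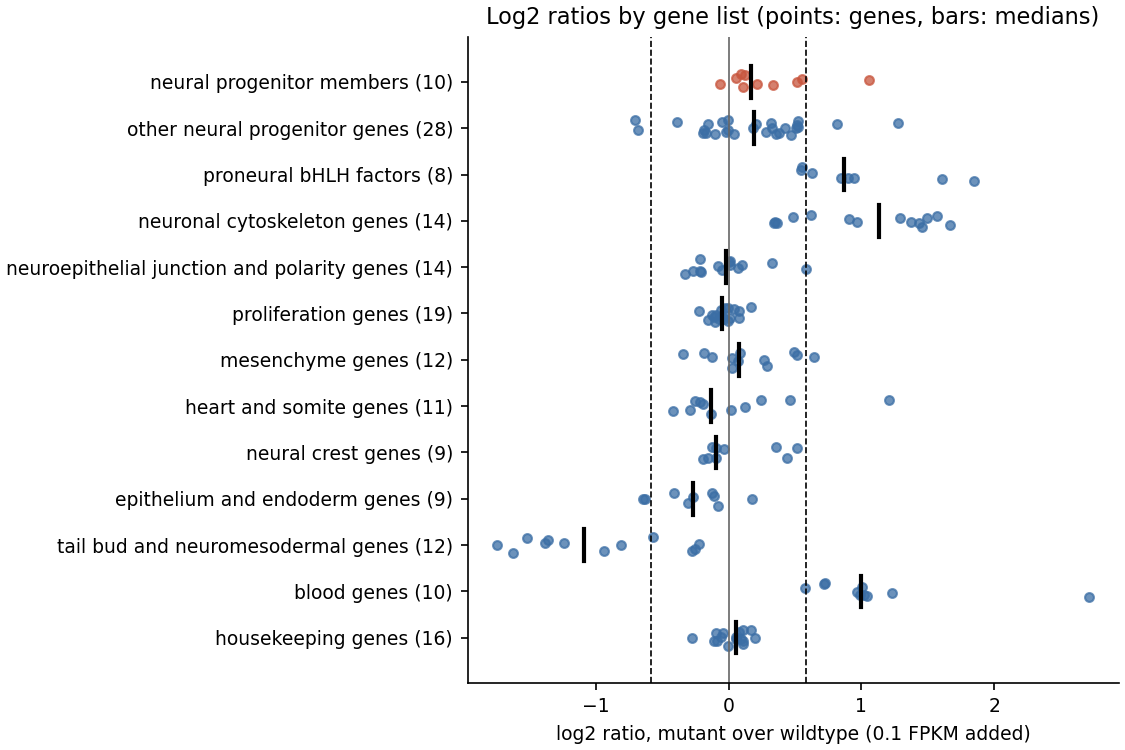
Log2 ratio of each expressed gene (points) by list, with the number of genes in brackets, black bars at the list medians and dashed lines at 1.5-fold. The median of the 10 progenitor genes (red, 0.17) lies between those of the proliferation genes (-0.05) and of the proneural (0.87) and neuronal cytoskeleton genes (1.13), with overlap of single genes, and that of the tail bud genes is the lowest shown (-1.09).

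*Sox2* is also expressed in the axial progenitors of the tail bud, in foregut endoderm and in pluripotent cells. Of 12 tail bud genes, 0 were called higher and 8 lower, with a median log2 ratio of -1.09 and a summed level of 37.3 FPKM in mutant embryos and 77.0 FPKM in wildtypes. *Cdx4* was at 4.24 and 14.4 FPKM (log2 ratio -1.74), *Cdx2* at 3.22 and 10.1 FPKM (-1.62), *T* at 3.23 and 7.75 FPKM (-1.24), and *Nkx1-2*, a gene of neuromesodermal progenitors, at 1.92 and 5.18 FPKM (-1.38). *Cdx4* was the most abundant by mean level, *Fgf8* was at 5.57 and 6.65 FPKM, and none of the 12 was at 0. The part of the tail bud in the level of *Sox2* was not tested. The pluripotency genes *Pou5f1* (0.338 and 0.557 FPKM), *Nanog* (0.0667 and 0.176 FPKM) and *Zfp42* (0.138 and 0.165 FPKM) were near 0 in both genotypes. Of the 9 pluripotency genes, *Lin28a* (94.9 and 171 FPKM, log2 ratio -0.85) and *Lin28b* (37.3 and 47.1 FPKM, -0.34), which many embryonic tissues express, passed 1 FPKM, with 0 called higher and 1 lower and a median of -0.59. The summed level of this list was 134 and 221 FPKM, 70.6% of it *Lin28a* in the mutants.

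*Prom1* and *Sox2* are also found in embryonic epithelia. Of 9 expressed genes of epithelium and endoderm, 0 were called higher and 2, the keratin genes *Krt8* and *Krt18* already given, were called lower, with a median log2 ratio of -0.27. The summed level over all 12 listed was 161 FPKM in mutant embryos and 228 FPKM in wildtypes. *Epcam* was at 15.1 and 18.7 FPKM (-0.30), and *Foxa2*, a gene of endoderm and floor plate, at 3.81 and 4.03 FPKM. Of 6 visceral endoderm genes past the same level, 1 was called higher and 4 lower, with a median log2 ratio of -0.77. The most abundant by mean level, *Dab2*, was at 11.0 and 13.6 FPKM (-0.29), *Afp* was at 14.7 and 8.10 FPKM (0.85), and *Ttr* was at 2.48 and 7.51 FPKM (-1.56), with a summed level over the 10 listed of 40.6 and 53.3 FPKM. The part of these tissues in the levels of *Prom1* and *Sox2* was not tested.

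*Fabp7* and *Nes* are also genes of crest-derived glia and their precursors. Of 9 neural crest genes, 0 were called higher and 0 lower, with a median log2 ratio of -0.10 and a summed level of 65.6 FPKM in mutant embryos and 64.0 FPKM in wildtypes. The crest and glial markers *Sox10* (-0.04), *Foxd3* (1.76 and 1.93 FPKM, -0.13) and *Erbb3* (4.70 and 5.03 FPKM, -0.10) were all slightly lower in mutant embryos, and none was at 0. The most abundant was *Ets1*, at 19.2 and 22.0 FPKM, and *Ngfr*, the neurotrophin receptor gene, was at 10.6 and 7.37 FPKM (log2 ratio 0.51). The part of crest cells in the levels of *Fabp7* and *Nes* was not tested.

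Blood genes were higher as a group. Of 10, 9 were called higher and 0 lower, with a median log2 ratio of 0.99 and a summed level of 12741 FPKM in mutant embryos and 6033 FPKM in wildtypes. The most abundant was the embryonic globin gene *Hba-x*, at 4602 and 2274 FPKM, and the widest ratio was that of the platelet gene *Pf4* (10.6 and 1.53 FPKM, 2.71). The part of blood in the ratios of the progenitor genes was not tested. With the genotypes rescaled on the median locus, the total or the upper quartile each of the 10 genes kept its direction.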

How the data were processed

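The authors made nondirectional libraries from 6 male embryos and sequenced single-end reads of 100 bp. Per the submitters' processing notes, TopHat2 2.0.6 and Bowtie2 2.0.2 were used with mm10, and Cufflinks and Cuffdiff 2.0.2 gave the deposited table. FPKM values in it were computed by the authors and pooled, 1 per genotype. Its columns of the authors' own fold changes, test statistics, p-values and q-values were not used. The first value column was taken as mutant, as in the study's own copy of the table.

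Loci marked as failed or too deep (135) were left out. Log2 ratios were computed with 0.1 FPKM added, over loci averaging 1 FPKM or more, and called at 1.5-fold, with no test. Genes and 18 further lists were chosen with earlier results of these data known, and 3 symbols were matched by a RefSeq synonym. All 10 genes were named, with the most abundant and most changed genes of each list. *Mki67* and *Cdh6*, marked as failed, were left out of their lists, and some list members are not reported here by name. Alternatives were other pseudocounts, level filters, scalings and folds. Steps were tested on simulated data. Python 3.11.15, numpy 2.4.6, pandas 2.3.3 and matplotlib 3.10.9 were used.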

Additional observations from a re-analysis of the deposited data

How the results depend on the processing

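The number of genes called higher was 4 with a threshold of 25% and 2, *Fabp7* and *Vim*, with the genotypes rescaled to the same total FPKM (log2 ratio of *Vim* 0.59). It was 1 in the other alternatives in which calls were counted, and 0 genes were called lower in any of these. Calls were not counted without *Vim*, *Cdh2* and *Prom1*. Rescaling to the same total moved the share of called loci that were higher from 70.8% to 76.8%, and it was 63.0% over loci averaging 5 FPKM or more and 64.1% with a threshold of 25%. Of all loci, 3.54% were called higher and 1.46% lower, against 2.04% and 0.883% with 1 FPKM added and 6.74% and 2.97% over loci averaging 0.1 FPKM or more. The median log2 ratio of the 10 genes lay between 0.15 and 0.21 over the other pseudocounts, level filters and scalings. Without *Vim*, *Cdh2* and *Prom1*, the median of the remaining genes was 0.21. Each gene kept its direction in the 6 alternatives run for single genes, *Cdh2* between -0.08 and -0.02 and *Fabp7* between 1.03 and 1.10. The neuronal cytoskeleton median lay above that of the progenitor genes by 0.75 with 1 FPKM added and by 0.80 over loci averaging 5 FPKM or more, which holds fewer genes. The rescaling over named loci of at least 200 bp and the medians without *Vim*, *Cdh2* and *Prom1* were chosen after seeing the data. Leaving out each embryo was not possible with 1 pooled value per genotype. No paired analysis was possible because the values are not given per embryo. Without counts, the depth behind a value is unknown.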
